A study of Homo sapiens with 4 samples.

Results

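Box C/D small nucleolar RNAs (snoRNAs) were examined in MOLM-13 cells, a line of human acute myeloid leukaemia, after CRISPR-Cas9 targeting of KAT6A. KAT6A encodes a histone lysine acetyltransferase. The genes were taken as all symbols that begin with SNORD, leaving out the imprinted SNORD113 to SNORD116 copies, averaging at least 1 TPM over the 4 libraries. TPM is a transcript's share of its library, corrected for length and scaled to a total of 1000000. The table held 233 such symbols, of which 161 reached the level and are called members here. They were read against all 12603 gene symbols with a mean of at least 1 TPM, out of 27800. The 2 sgKAT6A libraries came from cells given a lentivirus with CRISPR-Cas9 and sgKAT6A. The 2 EV libraries came from cells given the lentivirus with CRISPR-Cas9 labelled EV, so both groups carried Cas9 and a lentiviral insert. What EV stands for, the guide sequence, the number of guides, the time of harvest and whether cells were single clones or pools are not stated in the labels. Replicates are not said to be separate cultures, so the spread behind each p-value may be technical.

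Box C/D snoRNAs are short nuclear RNAs bound by the methyltransferase fibrillarin (FBL) with NOP56, NOP58 and SNU13. Most pair with ribosomal RNA or with U6 snRNA and direct fibrillarin to methylate the ribose of the paired base. A few, among them U3, U8, U13, U14 and U22, act in the cutting, folding or base modification of precursor ribosomal RNA. Most human box C/D snoRNAs are spliced out within an intron of a host gene, often a ribosomal protein gene or a non-coding RNA gene such as GAS5, and are trimmed from the released intron. U3, U8 and U13 instead have promoters of their own.

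The sequences that carry the comparisons below are given 5′ to 3′ as DNA letters from GENCODE 29 transcripts on GRCh38. Capitals mark the first TGATGA, the box C motif, and the last CTGA within the final bases, the box D motif. U3 and U8 come first, because SNORD3A was the most abundant member and both are made from their own promoters. SNORD3A lies at chr17:19188016-19188232 on the plus strand and SNORD118 at chr17:8173454-8173587 on the minus strand.
SNORD3A: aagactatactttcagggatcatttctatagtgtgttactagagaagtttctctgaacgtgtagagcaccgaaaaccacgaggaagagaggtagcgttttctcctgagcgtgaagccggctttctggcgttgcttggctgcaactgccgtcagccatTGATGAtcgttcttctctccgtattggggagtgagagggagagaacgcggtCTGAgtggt
SNORD118: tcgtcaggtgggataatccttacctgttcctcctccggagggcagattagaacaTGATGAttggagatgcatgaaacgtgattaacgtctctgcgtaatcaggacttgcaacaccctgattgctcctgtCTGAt

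The 5 copies of U14 are shown because they lie within only 2 host genes on chromosome 11 and can be compared within and between hosts. SNORD14A at chr11:17074654-17074744 and SNORD14B at chr11:17075779-17075868 lie in RPS13. SNORD14C at chr11:123059335-123059422, SNORD14D at chr11:123058909-123058995 and SNORD14E at chr11:123058077-123058161 lie in HSPA8, all 5 on the minus strand.
SNORD14A: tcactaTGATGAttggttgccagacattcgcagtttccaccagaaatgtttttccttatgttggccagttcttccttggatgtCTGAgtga
SNORD14B: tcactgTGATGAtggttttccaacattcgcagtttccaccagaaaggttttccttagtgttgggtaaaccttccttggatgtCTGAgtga
SNORD14C: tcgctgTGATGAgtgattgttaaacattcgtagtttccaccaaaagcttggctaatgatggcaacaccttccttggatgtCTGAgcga
SNORD14D: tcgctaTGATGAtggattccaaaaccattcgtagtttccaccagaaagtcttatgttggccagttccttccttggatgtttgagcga
SNORD14E: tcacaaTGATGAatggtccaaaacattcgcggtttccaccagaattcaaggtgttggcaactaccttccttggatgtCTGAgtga
All 5 copies share the 13-base run cttccttggatgt just before box D and the 10-base run gtttccacca in the middle, while pairs of copies differed by 13 to 22 edits along their length. SNORD14D has no CTGA at its 3′ end in this annotation.

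The 3 SNORD12 copies in ZFAS1 on chromosome 20, plus strand, are shown because copies of this family differed in opposite directions. SNORD12 is at chr20:49280683-49280772, SNORD12B at chr20:49280319-49280409 and SNORD12C at chr20:49278940-49279028.
SNORD12: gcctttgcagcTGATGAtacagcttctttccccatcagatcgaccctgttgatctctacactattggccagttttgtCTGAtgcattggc
SNORD12B: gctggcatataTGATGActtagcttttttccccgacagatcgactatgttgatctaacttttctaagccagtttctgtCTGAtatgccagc
SNORD12C: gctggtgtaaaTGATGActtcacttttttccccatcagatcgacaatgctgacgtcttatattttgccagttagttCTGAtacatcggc
These copies differed from each other by 24 to 29 edits and all hold the run cagatcgac.

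Last come the most abundant members after SNORD3A, and a member from an imprinted region. SNORD104, at chr17:64146083-64146152 on the plus strand in SNHG25, guides methylation of 28S rRNA. SNORD96A, at chr5:181241814-181241892 on the minus strand in RACK1, guides methylation of 5.8S rRNA. SNORD109B, at chr15:25278343-25278409 on the plus strand in SNHG14, lies in the imprinted region of chromosome 15, so that the rule, which goes by symbol, kept a gene from inside an imprinted cluster.
SNORD104: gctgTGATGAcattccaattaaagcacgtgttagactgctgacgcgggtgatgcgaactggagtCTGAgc
SNORD96A: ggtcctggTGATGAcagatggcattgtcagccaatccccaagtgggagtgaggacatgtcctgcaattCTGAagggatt
SNORD109B: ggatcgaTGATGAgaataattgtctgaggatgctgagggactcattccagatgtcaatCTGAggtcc
The symbols were checked against the class by these motifs, searched on the RNA strand only. Among the 121 members with a GENCODE sequence, 118 (97.5%) held CTGA in their last 19 bases, against 6 of 94 box H/ACA snoRNAs (6.38%). TGATGA stood in the first 21 bases of 73 members (60.3%), against 1 of 94 box H/ACA snoRNAs (1.06%). Both together were found in 72 members (59.5%) and in none of the box H/ACA snoRNAs. Annotated members were 48 to 237 bases long in RefSeq, with a median of 77 bases.

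Libraries within a group differed widely in small RNA. KAT6A itself was at 12.2 and 10.8 TPM in the sgKAT6A libraries, against 16.2 and 16.7 TPM in the EV libraries, a difference of -0.48 ± 0.13 (SE; limma adjusted p = 0.784). Depth is unknown from TPM, so values have no counting error here and a 0 is reported only as listed at 0. Genes at 1 TPM or more numbered 12082 to 12630 per library. Across the 24 snRNA genes tested, the summed share was 0.325% and 2.31% in sgKAT6A replicates 1 and 2, against 0.103% and 0.402% in EV replicates 1 and 2. The 18S rRNA symbol RNA18SN5 was at 12031 and 340 TPM in the sgKAT6A libraries, against 10401 and 13751 TPM in the EV libraries, so sgKAT6A replicate 2 stood apart in both. The 6 myeloid markers summed to 10326 to 11675 TPM in the sgKAT6A libraries and 7694 to 8832 TPM in the EV libraries. Most of this sum was LYZ, at 10975 and 9500 TPM in the sgKAT6A libraries and 7060 and 8068 TPM in the EV libraries. FLT3 was lower in sgKAT6A without overlap, at 46.2 and 42.9 TPM against 61.0 and 59.4 TPM in EV. SPI1, CD33, MPO and CSF3R overlapped between groups. Of 18 markers of other blood, epithelial and fibroblast cells, 13 were under 1 TPM in each library and 3 were listed at 0 throughout. Their sum ranged over 80.4 to 201 TPM in the sgKAT6A libraries and 51.1 to 211 TPM in the EV libraries. In bulk RNA, fewer cells with an RNA and less of it per cell cannot be told apart.

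Total box C/D RNA was higher on average in sgKAT6A, and nearly all of that gap lay in U3 and a few other snoRNAs of precursor rRNA processing and in sgKAT6A replicate 2. The remaining members summed to much the same level in both groups. All members together made up 6561 and 26705 TPM in sgKAT6A replicates 1 and 2, against 4203 and 7377 TPM in EV replicates 1 and 2. The mean was 16633 ± 14244 TPM in the sgKAT6A libraries and 5790 ± 2245 TPM in the EV libraries (SD, n = 2 each), a ratio of 2.87. An exact two-sided permutation test of this ratio gave p = 0.667, and 0.333 is the smallest p that 2 against 2 libraries allow. The groups overlapped, since sgKAT6A replicate 1 was below EV replicate 2, and without sgKAT6A replicate 2 the ratio was 1.13. SNORD3A alone took 24.1% and 77.5% of the members' sum in the sgKAT6A libraries, against 4.42% and 30.8% in the EV libraries. Without SNORD3A, the other 160 members summed to 4978 and 6004 TPM in the sgKAT6A libraries and 4017 and 5105 TPM in the EV libraries, a ratio of 1.20.

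Of the members, 11 belong to the snoRNAs of precursor rRNA processing named above, a grouping made with earlier results of these libraries known. SNORD3K, SNORD3P3, SNORD13E, SNORD13F and SNORD13H share a number with U3 or U13 but were counted with the other 150 members. The 11 were SNORD3A, SNORD3B-1, SNORD3C, SNORD118, SNORD13, SNORD14A to SNORD14E and SNORD22. They summed to 2122 and 22352 TPM in the sgKAT6A libraries, against 352 and 2804 TPM in the EV libraries, a ratio of 7.76, given as a description. Left out one at a time, the libraries moved this ratio to 14.2 when sgKAT6A replicate 1 was dropped and 1.34 when sgKAT6A replicate 2 was. It was 4.36 when EV replicate 1 was dropped and 34.8 when EV replicate 2 was. The other 150 members summed to 4439 and 4353 TPM in the sgKAT6A libraries and 3851 and 4574 TPM in the EV libraries, a ratio of 1.04, which stayed between 0.961 and 1.14 whichever library was left out. The processing group also carried most of the gap between replicates. Its sum in replicate 2 was 10.5 times that in replicate 1 among the sgKAT6A libraries and 7.97 times among the EV libraries. For the other 150 members these ratios were 0.981 and 1.19. The 24 snRNA genes, which are not members, were in the same order of libraries as U3, with sums of 3253 and 23118 TPM in the sgKAT6A libraries against 1032 and 4016 TPM in the EV libraries. Their part in the result was not tested.

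**Figure D1:**
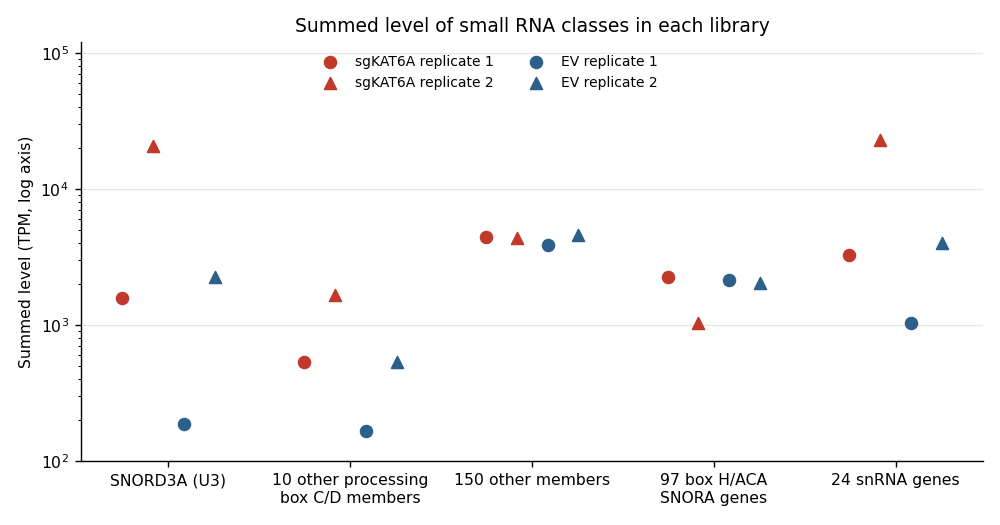
Summed level in TPM (log axis) in each library for SNORD3A, the 10 other processing members, the 150 other members, 97 box H/ACA snoRNA genes and 24 snRNA genes, with sgKAT6A libraries in red and EV libraries in blue, circles for replicate 1 and triangles for replicate 2. The sum of the 150 other members lies between 3851 and 4574 TPM in all 4 libraries, while SNORD3A ranges over 186 to 20702 TPM.

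U3, which directs early cuts toward 18S rRNA, had the widest range of any member. SNORD3A was at 1583 and 20702 TPM in the sgKAT6A libraries, against 186 and 2273 TPM in the EV libraries, where sgKAT6A replicate 1 fell between the EV libraries. The ratio of sgKAT6A to EV was 8.52 between the libraries numbered 1 and 9.11 between those numbered 2, and replicate 2 was 13.1 times replicate 1 among the sgKAT6A libraries and 12.2 times among the EV libraries. The fitted difference was 3.14 ± 1.83 on the log2(TPM + 1) scale (SE; limma adjusted p = 0.784, two-sided), with a 95% interval from -1.97 to 8.24. The ratio of means was 9.06 over all libraries and 1.29 without sgKAT6A replicate 2. SNORD3B-1 was at 1.61 and 28.6 TPM in the sgKAT6A libraries, against 0 and 1.52 TPM in the EV libraries. SNORD3C was listed at 0 and 25.4 TPM in the sgKAT6A libraries and at 0 in both EV libraries. Both differ from SNORD3A by 1 edit in 217 bases, so how reads were divided among these copies is uncertain. SNORD3K, which lies within METTL5, was at 0 and 7.37 TPM in the sgKAT6A libraries and at 0 and 20.4 TPM in the EV libraries.

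U8, needed for 5.8S and 28S rRNA, was at 129 and 446 TPM in the sgKAT6A libraries, against 5.82 and 124 TPM in the EV libraries. Its groups did not overlap, but the lower sgKAT6A library and the higher EV library were almost level, and the fitted difference was 3.04 ± 1.62 (SE; limma adjusted p = 0.784). SNORD118 overlaps an exon of TMEM107, which itself was at 4.21 and 8.99 TPM in the sgKAT6A libraries and 3.60 and 6.89 TPM in the EV libraries. U13, which guides a base acetylation in 18S rRNA, showed no common direction. SNORD13 on chromosome 8 was at 7.46 and 144 TPM in the sgKAT6A libraries and 15.7 and 68.7 TPM in the EV libraries, lower in sgKAT6A between the libraries numbered 1 and higher between those numbered 2. Its 3 other tested copies were low, with SNORD13E at 7.46 TPM in sgKAT6A replicate 1 and at 0 elsewhere, and SNORD13F and SNORD13H above 0 in 1 library of each group. U22 in SNHG1 acts in 18S rRNA formation in frog oocytes. SNORD22 was at 84.5 and 30.6 TPM in the sgKAT6A libraries against 34.6 and 37.7 TPM in the EV libraries, so the groups overlapped.

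U14 takes part in 18S rRNA processing and also guides its methylation, and all 5 copies had a higher mean in the sgKAT6A libraries, without any of them passing the adjusted threshold of 0.05. SNORD14A was at 79.9 and 92.7 TPM in the sgKAT6A libraries, against 27.4 and 30.5 TPM in the EV libraries. Here the replicates were close and the groups far apart, with a fitted difference of 1.54 ± 0.14 (SE), an unadjusted p of 0.000423 and an adjusted p of 0.573 (limma). SNORD14B, from the same host RPS13, was at 112 and 214 TPM in the sgKAT6A libraries against 64.4 and 105 TPM in the EV libraries, so its groups only just separated. The 3 copies in HSPA8 had wider gaps between replicates than those in RPS13. SNORD14C was at 16.7 and 175 TPM in the sgKAT6A libraries and 6.74 and 42.4 TPM in the EV libraries. SNORD14D was at 16.4 and 110 TPM in the sgKAT6A libraries and 2.23 and 24.7 TPM in the EV libraries. SNORD14E was at 91.0 and 385 TPM in the sgKAT6A libraries and 8.92 and 96.5 TPM in the EV libraries. In each of these 3 copies the libraries ran from low to high as EV 1, sgKAT6A 1, EV 2 and sgKAT6A 2, the same order as for SNORD3A. That order, noticed after the values were seen, held for 13 of the 161 members (8.07%), against 15.5% of all genes tested, and for 8 of the 24 snRNA genes.

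**Figure D2:**
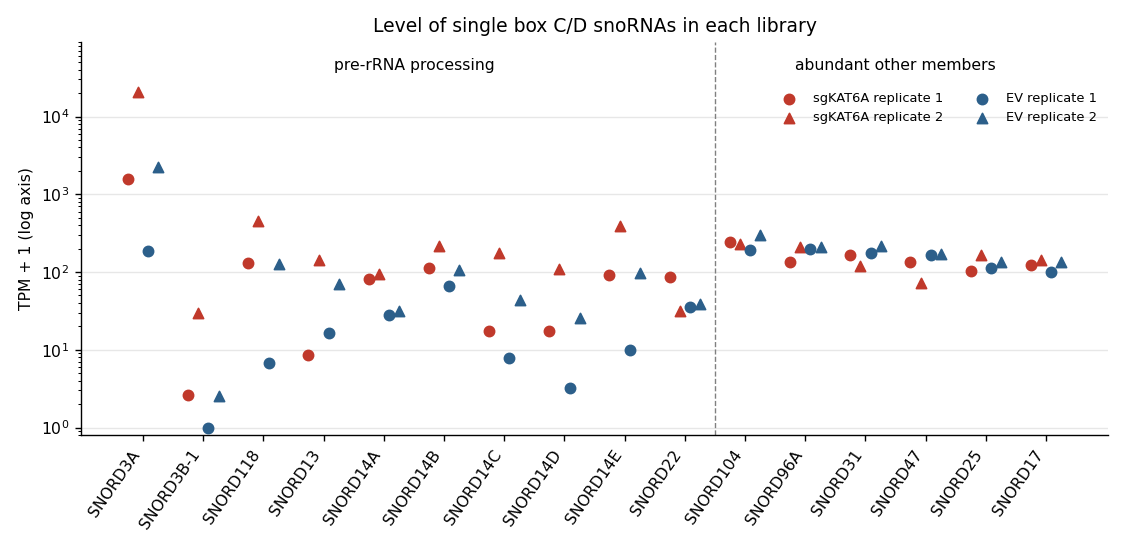
TPM + 1 (log axis) of 10 processing members and 6 abundant other members in each library, with sgKAT6A libraries in red, EV libraries in blue, circles for replicate 1 and triangles for replicate 2. SNORD14A shows 2 tight pairs, at 79.9 and 92.7 TPM in sgKAT6A and 27.4 and 30.5 TPM in EV, whereas SNORD3A and the copies in HSPA8 spread over more than 1 order of magnitude and the abundant other members lie between 70.5 and 302 TPM.

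Of 6 abundant members outside the processing group, 4 overlapped between groups and 2 were lower in sgKAT6A without overlap. SNORD104 was at 242 and 231 TPM in the sgKAT6A libraries and 190 and 302 TPM in the EV libraries, a fitted difference of -0.02 with a 95% interval from -0.74 to 0.70. SNORD96A was at 132 and 209 TPM in the sgKAT6A libraries and 198 and 206 TPM in the EV libraries. SNORD17, a 28S rRNA guide in SNX5, was at 121 and 142 TPM in the sgKAT6A libraries and 100.1 and 134 TPM in the EV libraries. For each of these 3 the groups overlapped. SNORD25, an 18S rRNA guide in SNHG1, also overlapped, at 101 and 165 TPM in the sgKAT6A libraries and 111 and 135 TPM in the EV libraries. The 28S rRNA guides SNORD31 and SNORD47 did not overlap and were lower in sgKAT6A. SNORD31 was at 163 and 120 TPM in the sgKAT6A libraries, against 172 and 213 TPM in the EV libraries. SNORD47 was at 135 and 70.5 TPM in the sgKAT6A libraries, against 165 and 169 TPM in the EV libraries. Their fitted differences were -0.45 and -0.77, neither past the adjusted threshold (limma adjusted p = 0.784 for both).

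Across all genes tested, limma called none at an adjusted p under 0.05 (0% of 12603), and so none of the members, whose smallest adjusted p was 0.573. At an unadjusted p under 0.05, 13 members were higher in sgKAT6A, beside 1.67% of all genes, and 9 were lower, beside 1.98%. Together these are 22 of 161 members, beside 459 of 12603 genes. Dropping sgKAT6A replicate 1 gave 43 members and 1212 genes, and dropping sgKAT6A replicate 2 gave 37 and 304. With EV replicate 1 dropped there were 22 and 179, and with EV replicate 2 dropped 26 and 241. Members also had wider spread, with a median SE of 0.60, against 0.18 for protein-coding genes. Both sgKAT6A libraries lay above both EV libraries in 26 members (16.1%), beside 14.4% of all genes, a share near the background. Both lay below in 18 members (11.2%), beside 23.2% of all genes, a smaller share than among genes at large. This reading depends on the scaling of the libraries. With the protein-coding total made equal in each library, 27 members were higher (16.8%, beside 19.9% of all genes) and 16 lower (9.94%, beside 15.4%). Without sgKAT6A replicate 2, 62 members (38.5%) were higher throughout, beside 27.6% of all genes, and 44 (27.3%) lower, beside 33.1%. Without sgKAT6A replicate 1 the shares were 41.0% higher, beside 36.7% of all genes, and 28.6% lower, beside 44.1%. Without EV replicate 1 they were 24.8% higher, beside 19.5%, and 27.3% lower, beside 37.7%. Without EV replicate 2 they were 32.3% higher, beside 39.2%, and 20.5% lower, beside 35.7%. The share of lower members was thus under that of all genes whichever library was left out, while the share of higher members was above it in 3 cases and under it without EV replicate 2. The median fitted difference of the members was 0.10, beside -0.02 over all genes, and 91 of 161 were positive. Of the 26 higher members, 3 were listed at 0 in both EV libraries, and of the 18 lower ones 4 were listed at 0 in both sgKAT6A libraries. Such members reached the mean of 1 TPM through 1 group alone.

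**Figure D3:**
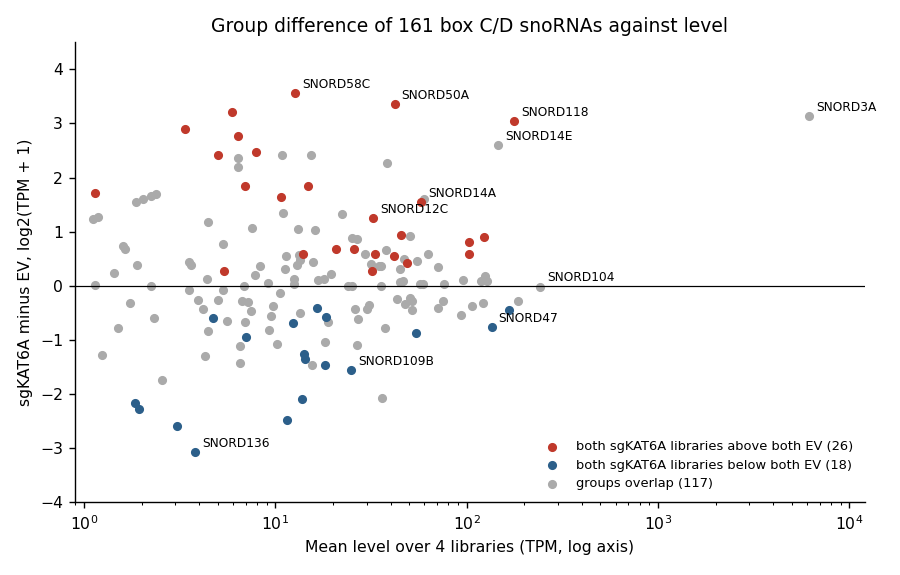
Fitted sgKAT6A minus EV difference in log2(TPM + 1) against mean TPM over 4 libraries (log axis) for the 161 members, in red where both sgKAT6A libraries lie above both EV libraries (26), in blue where both lie below (18), and in grey where the groups overlap (117). Differences beyond 2 on either side are mostly those of members under 50 TPM, and SNORD3A, SNORD118 and SNORD14E stand out among the abundant ones.

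Among the members higher in both sgKAT6A libraries, those with the smallest p after SNORD14A were mostly rare guides of rRNA methylation. SNORD59B, in ATP5B and paired with 18S rRNA, was at 9.89 and 12.8 TPM in the sgKAT6A libraries, against 2.33 and 2.53 TPM in the EV libraries. Its fitted difference was 1.84 ± 0.18 (SE; limma adjusted p = 0.612). SNORD59A, from the same host, overlapped between groups, at 4.95 and 5.14 TPM in the sgKAT6A libraries against 25.6 and 5.06 TPM in the EV libraries. SNORD12C, a 28S rRNA guide, was at 38.6 and 53.8 TPM in the sgKAT6A libraries, against 20.2 and 17.3 TPM in the EV libraries, a difference of 1.24 ± 0.21 (SE; limma adjusted p = 0.784). SNORD10, a guide of U6 snRNA in EIF4A1, was at 112 and 134 TPM in the sgKAT6A libraries, against 79.5 and 84.3 TPM in the EV libraries. This was the most abundant of the members with an unadjusted p under 0.05, with a difference of 0.58 ± 0.14 (SE). None of these passed after adjustment. U6 snRNA is also methylated with the help of SNORD8, SNORD9, SNORD67 and SNORD94, whose groups all overlapped. SNORD94, the most abundant of these 4, was at 39.9 and 4.495 TPM in the sgKAT6A libraries and 30.01 and 32.2 TPM in the EV libraries.

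Several others rested on values near the lowest in the table. SNORD91B, a 28S rRNA guide in TSR1, was at 4.65 and 8.85 TPM in the sgKAT6A libraries and listed at 0 in both EV libraries. SNORD71, a 5.8S rRNA guide in AP1G1, was at 2.33 and 2.21 TPM in the sgKAT6A libraries and listed at 0 in both EV libraries. SNORD149 was at 20.8 and 2.90 TPM in the sgKAT6A libraries and listed at 0 in both EV libraries. In each of these, 1 group had no value above 0, so no fold is given. They reached the mean of 1 TPM through the sgKAT6A libraries alone. SNORD98, an 18S rRNA guide in CCAR1, was at 12.4 and 10.8 TPM in the sgKAT6A libraries, against 2.42 and 0 TPM in the EV libraries. SNORD73B, in RPS3A, was at 7.42 and 10.3 TPM in the sgKAT6A libraries, against 2.33 and 0 TPM in the EV libraries. SNORD58C, a 28S rRNA guide, was at 12.4 and 35.8 TPM in the sgKAT6A libraries, against 0 and 2.55 TPM in the EV libraries. The levels of these 6 members in the EV libraries lay at or below 2.55 TPM, close to the lowest values above 0 of any member, which were 1.61 and 1.56 TPM in the sgKAT6A libraries and 2.23 and 1.41 TPM in the EV libraries.

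SNORD50A and SNORD52 were singled out after their values were seen, because they joined a higher level to groups that did not overlap. SNORD50A, a 28S rRNA guide, was at 29.7 and 126 TPM in the sgKAT6A libraries, against 2.33 and 10.1 TPM in the EV libraries. Its ratio of sgKAT6A to EV was 12.7 between the libraries numbered 1 and 12.4 between those numbered 2, and its fitted difference was 3.36 ± 0.96 (SE; limma adjusted p = 0.784). Its neighbour SNORD50B in the same host SNHG5 overlapped between groups, at 28.0 and 66.2 TPM in the sgKAT6A libraries and 18.4 and 39.5 TPM in the EV libraries. SNHG5 itself was at 455 and 326 TPM in the sgKAT6A libraries and 429 and 328 TPM in the EV libraries. SNORD52, a 28S rRNA guide, was at 143 and 116 TPM in the sgKAT6A libraries, against 58.0 and 92.2 TPM in the EV libraries, a difference of 0.81 ± 0.28 (SE; limma adjusted p = 0.784). The higher members not described elsewhere, SNORD2, SNORD15B, SNORD49A, SNORD62A, SNORD68, SNORD99 and SNORD101, had differences from 0.28 for SNORD49A to 1.84 for SNORD68.

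The members lower in both sgKAT6A libraries were led by SNORD136 in GNL3, which was listed at 0 in both sgKAT6A libraries and was at 9.31 and 5.92 TPM in the EV libraries. Its adjusted p was 0.573 (limma), but SNORD136 reached the mean of 1 TPM through the EV libraries alone, so this p is no support for a difference. SNORD131 in MRPL23 was also listed at 0 in both sgKAT6A libraries, against 3.75 and 3.98 TPM in the EV libraries. SNORD121A and SNORD51, a 28S rRNA guide, were listed at 0 in both sgKAT6A libraries too. In the EV libraries SNORD121A was at 2.30 and 5.11 TPM and SNORD51 at 2.33 and 9.97 TPM. SNORD131, SNORD121A and SNORD51 had a mean under 5 TPM, as did SNORD136. These 4 passed the filter only through the group where they are higher. SNORD21, a 28S rRNA guide in RPL5, had values above 0 in every library, at 7.45 and 8.04 TPM in the sgKAT6A libraries against 15.7 and 25.4 TPM in the EV libraries. SNORD80, a 28S rRNA guide in GAS5, was at 46.6 and 30.6 TPM in the sgKAT6A libraries, against 75.8 and 64.1 TPM in the EV libraries, a difference of -0.87 ± 0.25 (SE; limma adjusted p = 0.784). SNORD6 in TAF1D was at 6.997 and 2.55 TPM in the sgKAT6A libraries, against 16.1 and 29.6 TPM in the EV libraries. SNORD60, a 28S rRNA guide in SNHG19, was at 7.03 and 11.5 TPM in the sgKAT6A libraries, against 13.4 and 17.3 TPM in the EV libraries. In SNORD60 the higher sgKAT6A library came close to the lower EV library, whereas for SNORD6 both sgKAT6A libraries were well below it. The lower members not described elsewhere, SNORD57, SNORD72, SNORD117, SNORD143 and SNORD157, had differences from -1.46 for SNORD157 to -0.41 for SNORD117. Among the 117 members that overlapped, differences ran from -2.08 for SNORD100 to 3.14 for SNORD3A.

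SNORD109B, the member from the imprinted region of chromosome 15, was lower as well. It was at 17.3 and 8.11 TPM in the sgKAT6A libraries, against 36.2 and 38.2 TPM in the EV libraries, a difference of -1.56 ± 0.38 (SE; limma adjusted p = 0.784). SNORD64, SNORD107 and SNORD108 from the same region, and SNORD112 from the imprinted region of chromosome 14, were listed at 0 in every library. The 20 tested SNORD113 to SNORD116 copies had a median difference of -0.08. Without overlap, 2 of them were higher (10%, beside 14.4% of all genes) and 3 lower (15%, beside 23.2%). SNORD109B has no known rRNA or snRNA target.

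Within most families the copies differed in direction or overlapped between groups. In the SNORD12 family, all from ZFAS1, SNORD12 was at 54.6 and 62.6 TPM in the sgKAT6A libraries against 20.8 and 43.4 TPM in the EV libraries, while SNORD12B was at 9.93 and 5.32 TPM in the sgKAT6A libraries against 26.9 and 15.2 TPM in the EV libraries. With SNORD12C, this family thus had 2 copies higher and 1 lower without overlap, and the host ZFAS1 was at 308 and 293 TPM in the sgKAT6A libraries and 298 and 289 TPM in the EV libraries. In the SNORD88 family from C19orf48, SNORD88C was at 4.98 and 30.9 TPM in the sgKAT6A libraries against 4.51 and 2.55 TPM in the EV libraries, with differences of 0.31 and -0.01 for SNORD88B and SNORD88A, whose groups overlapped. The SNORD45 copies in RABGGTB had differences between -0.44 and -0.35, and the SNORD36 copies in RPL7A between -0.78 and -0.07, with overlap in each. The SNORD1 copies in SNHG16 ran over -1.04 to 2.41, the SNORD18 copies in RPL4 over -1.43 to 1.26 and the SNORD19 copies in GNL3 over -0.43 to 1.05. Overlap between groups was found for every copy of the SNORD1, SNORD18 and SNORD19 families.

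A containing host gene was assigned to 153 members, in 83 host genes, all of which were tested. Of the members, 117 lay in protein-coding hosts and 36 in non-coding hosts. Host differences spread less than those of the snoRNAs they contain, and in 121 of 153 pairs the host's was the smaller in size. None passed the adjusted threshold (smallest limma adjusted p = 0.784), 5 were higher without overlap (6.02%, beside 14.4% of all genes) and 33 were lower (39.8%, beside 23.2%). Many hosts are abundant, and among protein-coding genes of 50 TPM or more 7.42% were higher and 38.4% lower. The shares of the hosts were thus near those of abundant genes. With the protein-coding total made equal, 9 hosts were higher (10.8%, beside 19.9% of all genes) and 14 lower (16.9%, beside 15.4%). The excess of lower hosts over all genes was then nearly gone, but the share of higher hosts stayed under that of all genes. The median host difference under this scaling was -0.07, beside 0.04 over all genes. As deposited, host differences ran from -0.71 to 0.88 with a median of -0.13, and 74 of 83 lay within 0.5 of 0, whereas 67 of the 153 members did. In 98 of 153 pairs the member's difference was above its host's, by a median of 0.29 over all pairs. Across the 153 pairs, which share hosts and libraries, Pearson's r between the 2 differences was 0.03 and Spearman's rho 0.12, given as a description. Where a snoRNA lies inside an exon or a retained intron of its host, and where reads were not assigned by strand, reads of host and snoRNA cannot be separated. In GENCODE 29, 34 members overlapped an exon of a coding or long non-coding transcript, and 36 overlapped exons of retained-intron transcripts only. This was not determined for 35 members with a host but no strand.

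**Figure D4:**
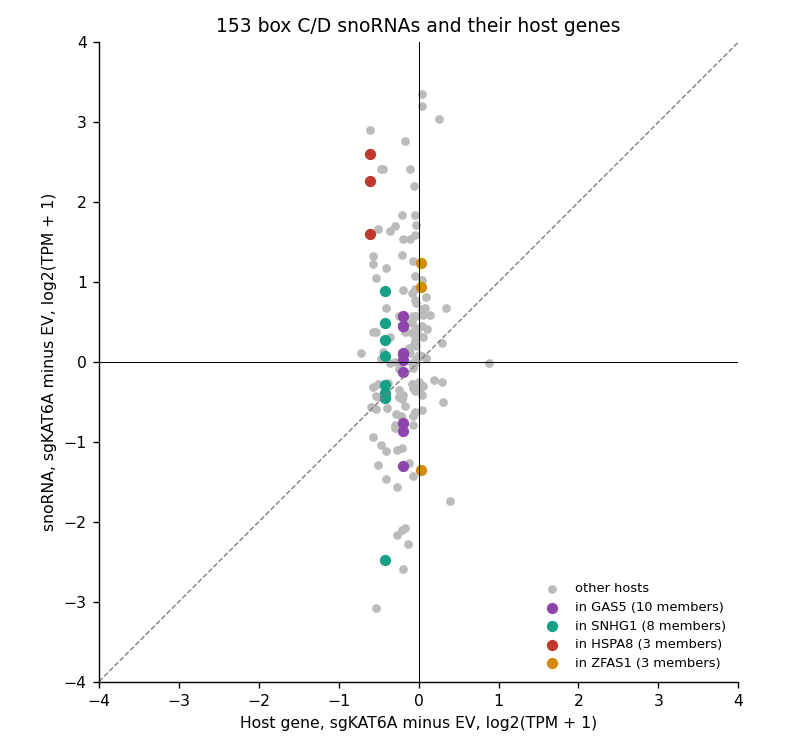
Fitted sgKAT6A minus EV difference in log2(TPM + 1) of each of 153 snoRNAs against that of its host gene, with the members of GAS5, SNHG1, HSPA8 and ZFAS1 coloured and a dashed line where both are equal. Host differences stay between -0.71 and 0.88, while the snoRNAs spread from -3.08 to 3.36, also within 1 host.

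HSPA8, the constitutive heat shock cognate chaperone, had a negative difference while those of its 3 U14 copies were positive. HSPA8 was at 740 and 396 TPM in the sgKAT6A libraries, against 960 and 710 TPM in the EV libraries, a difference of -0.61 ± 0.37 (SE; limma adjusted p = 0.784). Its 3 U14 copies summed to 124 and 670 TPM in the sgKAT6A libraries, against 17.9 and 164 TPM in the EV libraries. In sgKAT6A replicate 2 the host was lowest and its snoRNAs were highest. RPS13, the other U14 host, was at 3395 and 3037 TPM in the sgKAT6A libraries, against 3782 and 3562 TPM in the EV libraries, while SNORD14A and SNORD14B summed to 192 and 306 TPM in the sgKAT6A libraries against 91.9 and 135 TPM in the EV libraries.

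GAS5, a non-coding gene whose introns hold mostly 28S rRNA guides, contained 10 members. These summed to 410 and 329 TPM in the sgKAT6A libraries and 484 and 384 TPM in the EV libraries, and GAS5 itself was at 763 and 604 TPM in the sgKAT6A libraries and 818 and 743 TPM in the EV libraries. SNORD47 and SNORD80 were lower without overlap. SNORD44, SNORD74, SNORD75, SNORD76, SNORD77, SNORD78, SNORD79 and SNORD81 overlapped, with differences from -1.30 to 0.57. SNHG1 contained 8 members, which summed to 457 and 443 TPM in the sgKAT6A libraries and 447 and 527 TPM in the EV libraries. SNHG1 itself was at 77.6 and 53.0 TPM in the sgKAT6A libraries and 100.2 and 74.2 TPM in the EV libraries. SNORD29 was at 10.2 and 0 TPM in the sgKAT6A libraries against 17.3 and 18.2 TPM in the EV libraries, and SNORD27 at 6.93 and 5.05 TPM in the sgKAT6A libraries against 4.55 and 4.91 TPM in the EV libraries. With SNORD31, SNHG1 thus had 2 members lower and 1 higher without overlap, and SNORD22, SNORD25, SNORD26, SNORD28 and SNORD30 overlapped.

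Ribosomal protein hosts had small differences, mostly below 0. Over the 17 of them, differences ran from -0.19 for RPS13 to 0.06 for RPS3, and none passed the adjusted threshold. Without overlap, 10 were lower (58.8%, beside 23.2% of all genes) and 1 higher. Among protein-coding genes of 50 TPM or more, 38.4% were lower. With the protein-coding total made equal, 3 of the 17 hosts were lower (17.6%, beside 15.4% of all genes) and 2 higher (11.8%, beside 19.9%). RPL13A, RPL3, RPL4 and RPL7A had differences of 0.05, -0.03, -0.07 and -0.07, and each held 4 members. The 4 in RPL3, SNORD43, SNORD83A, SNORD83B and SNORD139, summed to 277 and 262 TPM in the sgKAT6A libraries against 220 and 197 TPM in the EV libraries, and of these SNORD83A was higher without overlap. The 4 in RPL13A summed to 120.0 and 182 TPM in the sgKAT6A libraries and 150.0 and 136 TPM in the EV libraries. SNORD32A, SNORD33 and SNORD35A are known from work in hamster and mouse cells on lipotoxic stress, and with SNORD34 all 4 overlapped here. Overlap was also found for the members in RPL4 and RPL7A. GNL3 and NOP58, which encode nucleolar proteins, were at 73.2 and 42.2 TPM and at 72.3 and 51.9 TPM in the sgKAT6A libraries, against 90.0 and 72.5 TPM and 89.4 and 74.8 TPM in the EV libraries. Of the 5 members in GNL3 only SNORD136 did not overlap, and none of the 4 in NOP58 separated.

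Most genes for proteins that bind, assemble and carry box C/D snoRNAs had lower values in sgKAT6A. Of 17 listed genes, all tested, none passed the adjusted threshold (smallest limma adjusted p = 0.784), 11 were lower without overlap (64.7%, beside 23.2% of all genes), none was higher without overlap (beside 14.4%), and 16 had a negative difference, with a median of -0.41 (-0.17 without sgKAT6A replicate 2). As deposited, 27.9% of protein-coding genes of 10 to 50 TPM and 38.4% of those of 50 TPM or more were lower without overlap. With the protein-coding total made equal, 8 of the 17 listed genes were lower without overlap (47.1%, beside 15.4% of all genes) and none higher. FBL, the methyltransferase, was at 417 and 330 TPM in the sgKAT6A libraries, against 495 and 445 TPM in the EV libraries. NOP58 and SNU13, both core proteins, did not overlap either, with SNU13 at 87.1 and 63.1 TPM in the sgKAT6A libraries against 113 and 93.2 TPM in the EV libraries. NOP56 was at 205 and 123 TPM in the sgKAT6A libraries and 271 and 204 TPM in the EV libraries, with a narrow overlap. RRP9, which binds U3 specifically, was at 37.1 and 1.71 TPM in the sgKAT6A libraries and 47.7 and 35.0 TPM in the EV libraries. In sgKAT6A replicate 2, U3 was therefore at its highest and RRP9 at its lowest. PIH1D1, an assembly factor, was the only listed gene with a positive difference, at 91.3 and 111 TPM in the sgKAT6A libraries and 99.1 and 94.99 TPM in the EV libraries.

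Other nucleolar and Cajal body RNAs were set beside the members to show where these differ. The 97 tested box H/ACA snoRNAs, which guide pseudouridylation, had a median difference of -0.34 (0.24 without sgKAT6A replicate 2), beside 0.10 for the members (0.16 without it), with 6 higher (6.19%, beside 14.4% of all genes) and 21 lower without overlap (21.6%, beside 23.2%, a share near the background). Their sum was 2247 and 1030 TPM in the sgKAT6A libraries and 2151 and 2025 TPM in the EV libraries, so sgKAT6A replicate 2 was low. The members' sum was high in that library, where SNORD3A made up 77.5% of it. The 150 members outside the processing group were not high there, with 4353 TPM beside 4439 TPM in sgKAT6A replicate 1. The 23 SCARNA genes had a median difference of 0.55, with 4 higher (17.4%) and 2 lower (8.70%) without overlap. No test of these differences between classes was made.

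Replicates lay further apart for members than for protein-coding genes of the same level. For members of 1 to 10 TPM, the median absolute gap between replicates on the log2(TPM + 1) scale was 2.30 between the sgKAT6A libraries and 1.12 between the EV libraries. Protein-coding genes in that range had gaps of 0.26 between the sgKAT6A libraries and 0.21 between the EV libraries. For members of 50 TPM or more the gaps were 0.79 between the sgKAT6A libraries and 0.56 between the EV libraries, so that the most abundant members still varied more than rare protein-coding genes. Of the members, 60 had a mean under 10 TPM, 50 were listed at 0 in at least 1 library and 9 were above 0 in 1 library only. Within each library, 21, 23, 24 and 21 members were listed at 0 in sgKAT6A replicates 1 and 2 and EV replicates 1 and 2. Across members, Spearman's rho between the difference in the libraries numbered 1 and that in the libraries numbered 2 was 0.09, and between RefSeq length and fitted difference 0.05, both as descriptions. In 55 members sgKAT6A replicate 2 was the highest of the 4 libraries, and in 24 it was over 2 times each of the others. The share over all genes was not counted, so nothing particular to the members is read from these counts.

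**Figure D5:**
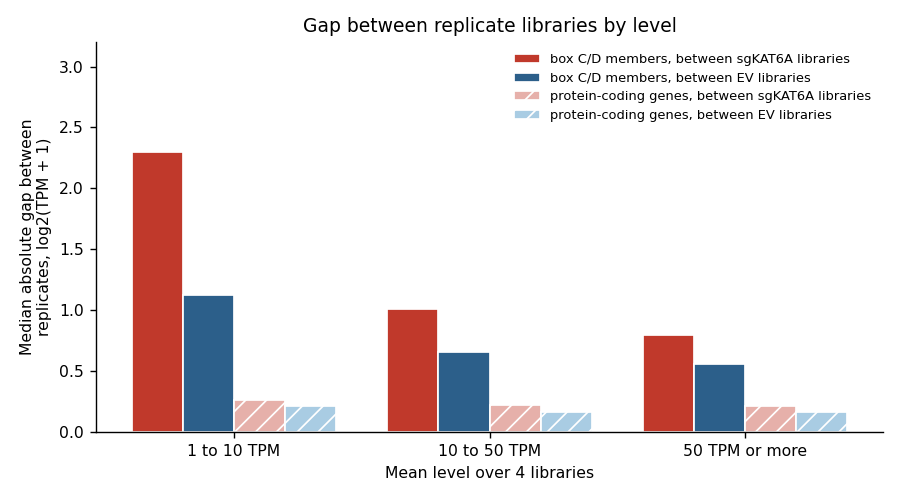
Median absolute gap between the 2 replicate libraries of a group, in log2(TPM + 1), for box C/D members (solid bars) and protein-coding genes (hatched bars) in 3 ranges of mean TPM, with sgKAT6A in red and EV in blue. The gap of the members falls with level, to 0.79 in sgKAT6A and 0.56 in EV at 50 TPM or more, and is wider than that of protein-coding genes in each range.

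The level of 1 TPM cut through genes seen in single libraries. Just inside were SNORD3P3 at 2.30 and 0 TPM in the sgKAT6A libraries and 0 and 2.28 TPM in the EV libraries, SNORD71, and SNORD105 at 0 and 4.48 TPM in the sgKAT6A libraries and 0 in both EV libraries. Just outside were SNORD121B and SNORD132, above 0 only in EV replicate 2 at 3.76 and 2.55 TPM, and SNORD111, above 0 only in sgKAT6A replicate 1 at 2.49 TPM. Of the 72 symbols under 1 TPM, 60 were listed at 0 in every library.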

How the data were processed

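Per the labels' protocols, a column kit was used for RNA and a company built the libraries. Whether polyadenylated RNA was selected, whether short RNA was kept, and whether strand was marked are not stated there. The authors deposited 1 table of TPM by gene symbol. Salmon and hg38 are named in the submitters' processing notes. Each library sums to 1000000 TPM, so a large difference in one RNA shifts every other value. How effective length was set for RNAs shorter than a sequenced fragment is not given, and it could change the level of each snoRNA. Samples were grouped by title, 2 sgKAT6A and 2 EV libraries.

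On the log2(TPM + 1) scale, all genes whose mean reached 1 TPM were fitted together with limma 3.58.1 in R 4.3.3 (group as the only term, moderated variances with a trend, 2 residual and 1.98 prior degrees of freedom, two-sided, Benjamini-Hochberg adjustment over all 12603 genes, threshold 0.05). Differences are sgKAT6A minus EV on that scale, which understates changes of low genes. The fit was run on simulated data with planted differences, and was checked only for returning their size on average. Members and lists, the processing snoRNAs among them, were chosen with earlier results of these data known. Named by rule are SNORD3A, SNORD118, SNORD13, SNORD14A, SNORD59B, SNORD91B, SNORD131 and SNORD136, the 10 highest means, the 10 smallest p in each direction without overlap, families of at least 3 copies, hosts of at least 4 members, members of imprinted regions and the edge of 1 TPM. Other members were named after their values were seen. Hosts are genes of GENCODE 29 that contain the snoRNA on its strand. The shortest one with a listed symbol was taken where several did. For 35 members with a host no strand was given, the GAS5 members among them. For these the shortest such gene was taken because all containing genes lay on 1 strand. A further 4 members had no strand and were given no host. RefSeq gave positions for all 161 members. Edits between copies were counted with edlib 1.3.9.post1. Alternatives were other pseudocounts, filters, scalings and variance models, leaving out single libraries, and a replicate block. Sums without SNORD3A, and sums of processing and other members without each library, were added after seeing the data. Some genes are not reported here.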

Additional observations from a re-analysis of the deposited data

How the results depend on the processing

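With 2 libraries a group, limma called no gene at an adjusted p under 0.05 over all alternatives except the replicate block. At an unadjusted p under 0.05 there were 459 genes with all libraries, 179 to 1212 with single libraries left out, 933 with no filter and 2417 with the replicate block. The labels do not say that equal replicate numbers pair the libraries. Deviations of same-numbered libraries correlated at 0.45 over all genes and 0.20 over members. With the replicate block, 15 genes passed, 5 of them members. These were SNORD3A (limma adjusted p = 0.0124), SNORD50A (0.0262), SNORD58C (0.0262), SNORD14D (0.0393) and SNORD14A (0.0471). With each library left out in turn, 40 to 66 members were higher and 33 to 46 lower without overlap, beside 26 and 18 with all libraries, since a lone library separates more easily. Dropping sgKAT6A replicate 1 gave counts of 66 and 46, dropping sgKAT6A replicate 2 gave 62 and 44, dropping EV replicate 1 gave 40 and 44, and dropping EV replicate 2 gave 52 and 33. The members' median stayed between -0.03 and 0.22. The log2 ratio of the members' sum, 1.52 with all libraries, was 0.18 with sgKAT6A replicate 2 dropped and 2.21 with sgKAT6A replicate 1 dropped.

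With the members scaled to a common sum in each library, which SNORD3A dominates, 9 were higher and 46 lower without overlap and their median was -0.93. When the total of protein-coding genes was made equal instead, 2511 genes were higher and 1945 lower without overlap, beside 1813 and 2930 as deposited. Quantile normalization left 6 of the 17 snoRNP protein genes (35.3%) and 18 of the 83 hosts (21.7%) lower without overlap, beside 19.4% of all genes. SNORD13 was -0.99 without EV replicate 1 and ranged over -2.01 to 2.09 with each sgKAT6A library left out, beside 0.04 with all libraries. Leaving out single libraries put the box H/ACA median between -1.11 and 0.24, the SCARNA median between 0 and 0.76 and the SNORD113 to SNORD116 median between 0 and 0.69, the last at -0.86 with a mean of at least 5 TPM. For the H/ACA, SCARNA and SNORD113 to SNORD116 medians the cause was not tested. The differences of SNORD118, SNORD10, SNORD14A and SNORD109B kept their sign under the alternatives in which they were followed one by one. The scaling of members to a common sum was not among these, so the signs of SNORD118, SNORD10, SNORD14A and SNORD109B under it were not examined.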
